A study of Mus musculus with 6 samples.

Results

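The AP-1 and immediate early factors described here are 10 genes, Fos, Fosb, Fosl1, Fosl2, Jun, Junb, Jund, Atf3, Maff and Egr1, taken by symbol from the 53801 Ensembl gene identifiers counted in each library. The libraries came from MC3T3-E1, a mouse pre-osteoblast cell line, infected with a lentivirus carrying either a scrambled non-silencing RNA (Control, 3 libraries) or an shRNA against Hdac4 (Hdac4-knockdown, 3 libraries). Both groups carried the same vector, with ZsGreen1 and a puromycin resistance gene, and were selected with 5 μg/mL puromycin for 7 days. The comparison asks how the levels of these transcription factors differed between the groups. The knockdown rests on a single hairpin. The labels describe 3 independent RNA samples per group without saying that each came from its own infection. The p-values therefore set the group difference against the spread between these samples, as fitted over all tested genes.

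AP-1 is a dimer of basic leucine zipper proteins. FOS proteins (FOS, FOSB, FOSL1 and FOSL2) bind DNA together with a JUN protein (JUN, JUNB or JUND), whereas JUN proteins also pair among themselves. ATF3 is a stress-induced member that often represses its targets. MAFF, a small MAF protein, has no transactivation domain of its own and pairs with factors such as NFE2L2 and BACH1. EGR1 is a zinc finger protein that binds GC-rich sites. Most of these genes are immediate early genes, which are transcribed within minutes of serum, growth factors, stretch or stress through kinase-activated factors already present in the cell. In bone, AP-1 proteins are known for their part in osteoblast and osteoclast differentiation.

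In Hdac4-knockdown libraries, 6 of the 10 genes rose (Fosb, Fos, Egr1, Fosl1, Junb and Jun), 2 fell (Atf3 and Maff), 1 did not pass the test (Fosl2) and 1 was listed at 0 counts in every library (Jund). Fosb was 4.39-fold higher and Fos 2.08-fold higher. Atf3 was 11.2-fold lower and Maff 3.12-fold lower. A gene is said to rise or fall where the adjusted p of edgeR's quasi-likelihood test was below 0.05 and the log2 fold change was beyond 0.05 in size. These thresholds were passed by 38.0% of all 14531 tested genes in the higher direction, 37.1% in the lower direction and 75.1% in either, so passing them does not set the members apart. The 3 libraries of one group all lay outside the 3 of the other for all 9 members that were tested, which was also the case for 76.8% of all tested genes. Beyond a log2 fold change of 0.5, 3 members were higher (Fosb, Fos and Egr1) and 2 lower, where 24.6% of all tested genes were higher, 19.8% lower and 44.4% either. Beyond 1, 2 members were higher (Fosb and Fos) and 2 lower (Atf3 and Maff), where the shares of all tested genes were 16.5%, 10.6% and 27.1%. Regardless of sign, the median log2 fold change was 0.58 for the 9 members and 0.46 for all tested genes.

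Hdac4, the targeted gene, stood at 40.7, 40.2 and 39.9 CPM (CPM being counts scaled to library size after TMM normalization) in Control libraries and at 30.7, 28.8 and 29.5 CPM in Hdac4-knockdown libraries, a log2 fold change of -0.44 (SE 0.057, edgeR adjusted p = 8.98e-07). Each library held between 29096544 and 31651826 counts on genes. Reads outside annotated genes were 3.17% to 3.41% in Control and 4.64% to 5.07% in Hdac4-knockdown libraries. Of the 9 osteoblast markers, 5 were higher in Hdac4-knockdown libraries, 1 was lower and 3 were not tested, among them Alpl with at most 3 counts in every library, and their summed level was 4772 to 4785 CPM in Control and 21449 to 22286 CPM in Hdac4-knockdown libraries. Most of that rise came from the collagen genes Col1a1, at 338 and 11015 CPM on average, and Col1a2, at 1213 and 8572 CPM, while Spp1 was lower, at 3154 and 2046 CPM. The 4 skeletal muscle markers were all lower in Hdac4-knockdown libraries, with a summed level of 146 to 154 CPM in Control and 29.0 to 32.8 CPM in Hdac4-knockdown libraries. The endothelial markers summed to 0.262 to 0.421 CPM in Control and 2.81 to 3.16 CPM in Hdac4-knockdown libraries, and of the 4 only Pecam1 was tested, which rose from 6, 7 and 6 counts to 72, 75 and 75 counts (log2 fold change 3.45, edgeR adjusted p = 4.46e-09). The macrophage markers summed to 1.604 to 2.585 CPM in Control and 2.82 to 3.20 CPM in Hdac4-knockdown libraries, with Adgre1 at 0 in every library. Of the 2 tested, Csf1r rose from 3, 4 and 6 counts to 19, 23 and 22 counts (log2 fold change 2.20, edgeR adjusted p = 0.000195). Cd68, which made up most of the sum at 1.78 and 2.05 CPM on average, did not pass the test (log2 fold change 0.21, edgeR adjusted p = 0.454). Its groups overlapped. The epithelial markers summed to 0.491 to 0.969 CPM and 0.565 to 0.905 CPM. The adipocyte markers summed to 15.9 to 17.4 CPM in Control and 5.37 to 6.73 CPM in Hdac4-knockdown libraries, 16.3 and 5.71 CPM of it on average from Cebpa, and the neuronal markers to 163 to 167 and 71.8 to 82.5 CPM, 165 and 77.3 CPM of it from Tubb3. Beside these marker counts, 38.0% of all tested genes were higher and 37.1% lower. The marker genes given by name here were chosen after their values were seen. The part of these differences in the results was not tested, and in bulk RNA fewer cells of a type and less RNA per cell cannot be told apart.

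Promoter sequences are shown for the 4 members with the largest differences, Fosb, Fos, Atf3 and Maff, because the promoters of these genes are where the signals that induce them converge. RefSeq windows around a start of transcription (GRCm38.p6) were at hand for 8 of the 10 members, and none for Fosl1 and Egr1. Each sequence covers the 250 bases before a start, 5′ to 3′ on the strand of the gene. Capitals mark the bases of any match to TGACG (the core of the cyclic AMP response element, CRE), TGACGTCA (the full CRE), TGANTCA (the AP-1 site), GCGNGGGCG (the EGR site) or the CArG box bound by SRF, each searched on both strands. TGACG also lies inside every full CRE.
Fos, chr12:85473640-85473889, plus strand: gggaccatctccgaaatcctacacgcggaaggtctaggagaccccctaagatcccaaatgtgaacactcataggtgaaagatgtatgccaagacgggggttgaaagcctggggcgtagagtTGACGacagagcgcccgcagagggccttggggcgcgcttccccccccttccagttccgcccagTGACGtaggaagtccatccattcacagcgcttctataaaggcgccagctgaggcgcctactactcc
Fosb, chr7:19310046-19310295, minus strand: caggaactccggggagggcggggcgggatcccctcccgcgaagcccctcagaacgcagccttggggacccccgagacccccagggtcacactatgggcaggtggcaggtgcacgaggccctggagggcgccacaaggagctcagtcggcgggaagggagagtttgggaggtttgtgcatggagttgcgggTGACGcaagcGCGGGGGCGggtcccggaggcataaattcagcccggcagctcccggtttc
Atf3, chr1:191183334-191183583, minus strand: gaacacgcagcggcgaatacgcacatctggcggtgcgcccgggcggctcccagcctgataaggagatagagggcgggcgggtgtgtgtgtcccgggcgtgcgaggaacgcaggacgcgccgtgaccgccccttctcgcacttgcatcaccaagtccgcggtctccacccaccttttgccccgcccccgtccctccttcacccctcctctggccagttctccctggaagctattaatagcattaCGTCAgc
Maff, chr15:79347270-79347519, plus strand, the second of 3 starts: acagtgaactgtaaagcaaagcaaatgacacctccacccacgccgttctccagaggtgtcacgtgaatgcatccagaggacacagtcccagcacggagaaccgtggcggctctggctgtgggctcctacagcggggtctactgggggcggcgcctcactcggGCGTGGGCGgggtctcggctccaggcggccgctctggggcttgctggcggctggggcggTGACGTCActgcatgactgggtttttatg

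Each window shown held the TGACG core, though for Maff this depends on which start is shown. The core lay at bases -129 to -125 and -66 to -62 before the Fos start and at -60 to -56 in Fosb. In Atf3 it lay at -7 to -3, on the opposite strand, and in Maff within a full CRE at -29 to -22. Junb also held it, at -106 to -102, and so did the third Maff window. The windows of Fosl2, Jun and Jund and the first Maff window did not hold it. Not every window adjoins the outer start of the counted gene. The Jund window ends at 70697738, before that gene's start at 70698949. On the minus strand, the counted Atf3 gene begins at 191218039, and its window, 191183334 to 191183583, lies inside it. Of the Maff windows, only the one shown held the full CRE. Over all 32851 windows of 300 bases (250 before and 50 after a start), 20.8% held TGACG and 1.79% the full CRE. The members' windows were not tested against these shares. The EGR site was found at -50 to -42 in Fosb, -79 to -71 in Fosl2 and -88 to -80 in the second Maff window, and in 5.55% of all windows. The letters TGANTCA, searched as the AP-1 site (7.81% of all windows), and the CArG box (1.63%) were not found in any member's window. Other forms of these sites, which differ by a letter or more, were not searched. The core was thus present in members that rose and in members that fell. A match describes letters and not binding, and the windows do not reach sites farther from the start.

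Fosb, whose truncated product ΔFosB is known to increase bone mass when overexpressed in mice, was at 3.24, 2.74 and 3.51 CPM in Control libraries and at 13.7, 13.4 and 14.6 CPM in Hdac4-knockdown libraries. Every Hdac4-knockdown library was far above every Control library. On the log2 scale the difference was 2.13 (SE 0.116, edgeR adjusted p = 1.83e-12), larger in size than that of all but 11.3% of tested genes. The gene (ENSMUSG00000003545) lies on chromosome 7 from 19302696 to 19310051 and shares no exon bases with another gene.

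Fos, the founding member of the family, was at 9.46, 10.8 and 9.54 CPM in Control and at 21.1, 18.7 and 22.3 CPM in Hdac4-knockdown libraries. The groups lay apart, with Hdac4-knockdown replicate 2 the closest to Control. This gave a log2 fold change of 1.06 (SE 0.0897, edgeR adjusted p = 2.20e-09). Fos (ENSMUSG00000021250) lies on chromosome 12 from 85473890 to 85477273, with no exon bases shared with another gene.

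Fosl1, which encodes Fra-1, an AP-1 protein needed for normal bone matrix production, was the most abundant FOS member. It was at 215, 223 and 213 CPM in Control and at 263, 279 and 275 CPM in Hdac4-knockdown libraries. All 3 Hdac4-knockdown libraries exceeded the highest Control library, by a smaller margin than for Fos and Fosb, with a log2 fold change of 0.33 (SE 0.0405, edgeR adjusted p = 4.63e-07). In size, 60.9% of all tested genes differed more than Fosl1. Of its 2033 exon bases, 1163 are shared with Ccdc85b on the opposite strand, a gene that was itself higher in Hdac4-knockdown libraries (log2 fold change 1.41, SE 0.0549, edgeR adjusted p = 9.10e-15). The library kit does not mark strand, and reads shared between genes were left out of the counts. The counts of Fosl1 are uncertain to that extent and may miss reads from the shared bases.

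Fosl2, which encodes Fra-2, a factor of osteoblast differentiation, was at 101, 103 and 109 CPM in Control and at 112, 109 and 111 CPM in Hdac4-knockdown libraries. The highest Control library and the lowest Hdac4-knockdown library almost touched. Its log2 fold change was 0.09 (95% confidence interval -0.01 to 0.18, edgeR adjusted p = 0.0888) and did not pass the test. It passed with scaling by library size alone (0.14, edgeR adjusted p = 0.00694), with upper quartile scaling (0.17, edgeR adjusted p = 0.00139) and when genes under 10 counts in any library were left out (0.12, edgeR adjusted p = 0.0161), and over all alternatives the adjusted p ranged from 0.00139 to 0.376.

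Both measurable JUN genes rose, by less than Fos and Fosb. In size, 65.2% of all tested genes differed more than Junb and 82.3% more than Jun. Junb, whose protein supports proliferation of osteoblasts and chondrocytes, was at 154, 157 and 153 CPM in Control and at 182, 196 and 189 CPM in Hdac4-knockdown libraries, with no overlap between the groups and a log2 fold change of 0.29 (SE 0.0417, edgeR adjusted p = 3.99e-06). Junb shares 173 of its 2301 exon bases with Prdx2 on the opposite strand, which was lower in Hdac4-knockdown libraries (log2 fold change -0.43, edgeR adjusted p = 2.03e-08). Jun, the first JUN protein described and the main target of JNK kinases, was at 190, 199 and 189 CPM in Control and at 208, 222 and 208 CPM in Hdac4-knockdown libraries. The groups did not overlap, but the highest Control library came close to the lowest Hdac4-knockdown libraries. Its log2 fold change was 0.14 (SE 0.0423, edgeR adjusted p = 0.00516), and without Control replicate 3 it was 0.12 and no longer passed (edgeR adjusted p = 0.0522; 6.13e-05 to 0.0522 over all alternatives). Jun is a single-exon gene that shares 232 of its 3189 bases with its antisense gene Junos. Junos was also higher in Hdac4-knockdown libraries (log2 fold change 0.85, SE 0.115, edgeR adjusted p = 1.81e-06). Without strand the reads of both cannot be told apart there, and reads shared between genes were left out of the counts.

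Jund was listed at 0 counts in all 6 libraries and was not tested. Gm11175, which lies opposite Jund and shares 877 of its 1668 exon bases, was also listed at 0 in all 6. The cause was not tested, and nothing is said here of the level of Jund, which is usually the constitutively expressed JUN gene.

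Atf3 had the largest difference of the 10 genes. It was counted 448, 465 and 412 times in Control libraries and 36, 52 and 36 times in Hdac4-knockdown libraries, or at 14.7, 15.5 and 14.5 CPM against 1.16, 1.61 and 1.20 CPM. The Hdac4-knockdown level was 8.90% of the Control level, and the groups were 3.16 apart on the log2 scale at their nearest libraries. The log2 fold change was -3.48 (SE 0.136, edgeR adjusted p = 8.62e-15), with 4.92% of all tested genes differing more in size. Between 36 and 52 counts leave a coefficient of variation of 19.0% in Hdac4-knockdown libraries, against 3.85% in Control. Atf3 (ENSMUSG00000026628; chromosome 1, 191170296 to 191218039) shares no exon bases with another gene.

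Maff was at 59.3, 61.8 and 60.7 CPM in Control and at 18.2, 19.5 and 20.5 CPM in Hdac4-knockdown libraries. The Hdac4-knockdown libraries all lay at about the same lower level, with no overlap. The log2 fold change was -1.64 (SE 0.0599, edgeR adjusted p = 3.03e-15). Maff (ENSMUSG00000042622) lies on chromosome 15 from 79346621 to 79359076 and shares no exon bases with another gene. Among the remaining small MAF genes, Mafk moved the opposite way, from 29.6 ± 1.02 to 57.1 ± 2.23 CPM (SD, n = 3), a log2 fold change of 0.95 (SE 0.0562, edgeR adjusted p = 7.51e-12), and Mafg was at 135 ± 5.75 and 132 ± 2.93 CPM (SD, n = 3; log2 fold change -0.03, edgeR adjusted p = 0.566). Mafg was added after its values were seen. Of the summed small MAF level per kb of exon, Maff made up 42.5 ± 0.667% in Control and 16.4 ± 0.956% in Hdac4-knockdown libraries (SD, n = 3), and Mafk 13.8 ± 0.677% and 32.1 ± 0.505%.

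Egr1, which is induced by the same kinase pathways as Fos, was at 192, 188 and 182 CPM in Control and at 281, 293 and 265 CPM in Hdac4-knockdown libraries. The lowest Hdac4-knockdown library was well above the highest Control library. The log2 fold change was 0.58 (SE 0.0442, edgeR adjusted p = 4.39e-10), near the middle of all tested genes in size, with 42.4% of them larger. Egr1 made up 91.1 ± 0.579% of the EGR family's level per kb of exon in Control and 93.0 ± 0.578% in Hdac4-knockdown libraries (SD, n = 3). For each of the 9 tested members the two-sided exact permutation test over libraries gave p = 0.1, the smallest that 3 against 3 allow, so the calls come from edgeR's fit over all genes.

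**Figure D1:**
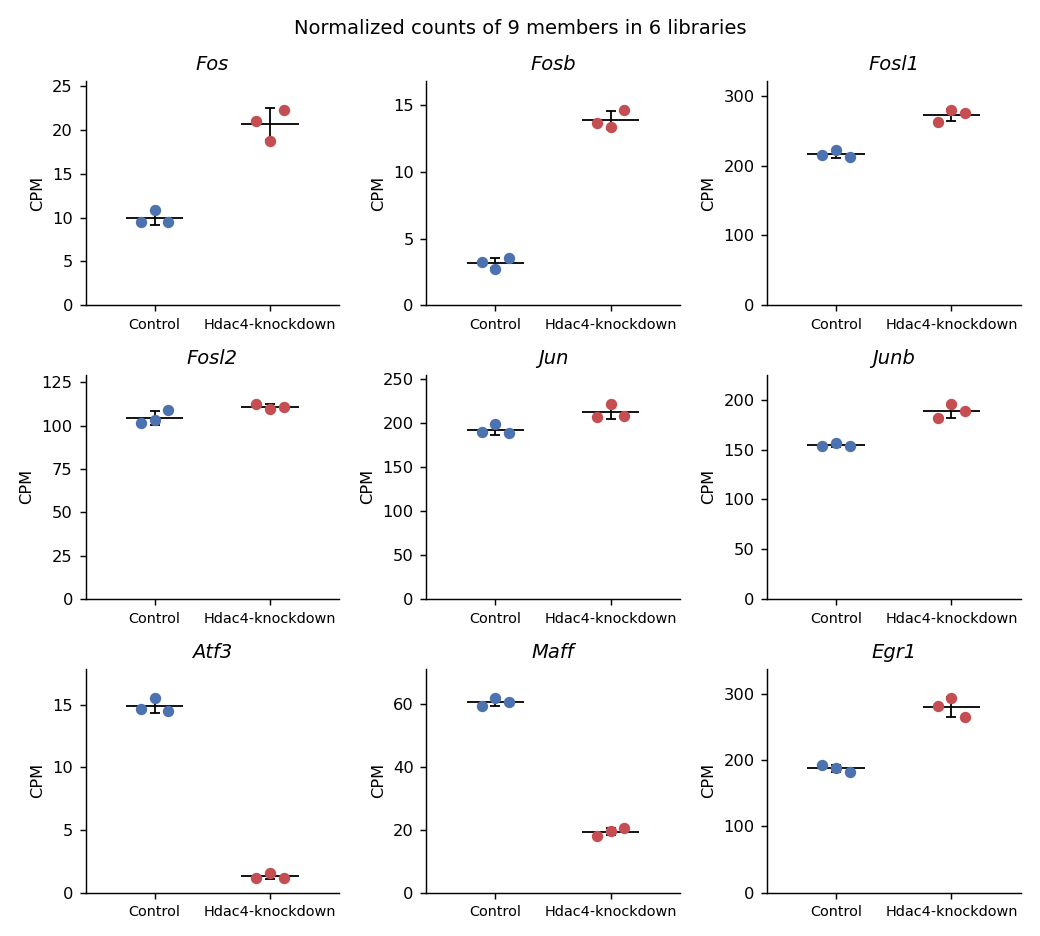
Normalized counts (CPM, linear axis from 0) of the 9 members with counts, in 3 Control (blue) and 3 Hdac4-knockdown (red) libraries; each point is a library, the line the mean and the bar the SD. Fos and Fosb stand higher and Atf3 and Maff lower in every Hdac4-knockdown library, whereas Fosl2 and Jun differ little.

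**Figure D2:**
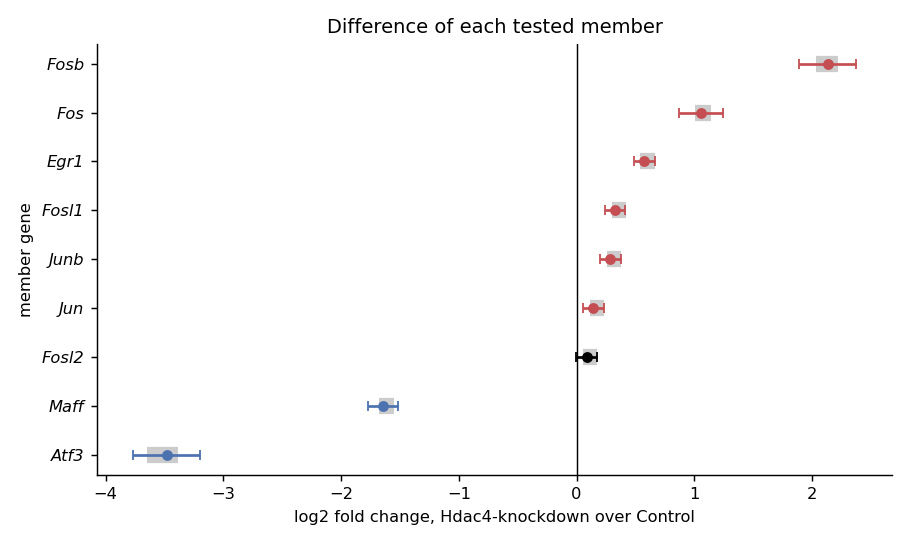
Log2 fold change of each tested member (points) with its 95% confidence interval (bars), red where it rose, blue where it fell and black where it did not pass the test, over the range of 14 alternative analyses (grey). The range of the alternatives keeps to one side of 0 for each of the 9 members, from -3.65 to -3.39 for Atf3 and from 2.03 to 2.22 for Fosb.

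Levels of different genes were set side by side per kb of annotated exon. In Control libraries the order from high to low was Fosl1 (107 CPM per kb), Junb (67.2), Jun (60.4), Egr1 (41.8), Maff (23.4), Fosl2 (10.8), Atf3 (6.91), Fos (4.23) and Fosb (0.507). No neighbours in this order overlapped between libraries. In Hdac4-knockdown libraries it was Fosl1 (134 CPM per kb), Junb (82.0), Jun (66.7), Egr1 (62.4), Fosl2 (11.4), Fos (8.79), Maff (7.48), Fosb (2.22) and Atf3 (0.615). Here Jun and Egr1 overlapped and their order is not settled, whereas the other neighbours did not overlap. Atf3 thus went from above Fos and Fosb to below both, and Maff from above Fosl2 to below Fos. These per-length levels depend on the annotated exon length, which includes bases shared with other genes. Where reads on shared bases were left out, the levels may be too low. This concerns Fosl1 most, with 1163 of 2033 bases shared with Ccdc85b.

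**Figure D3:**
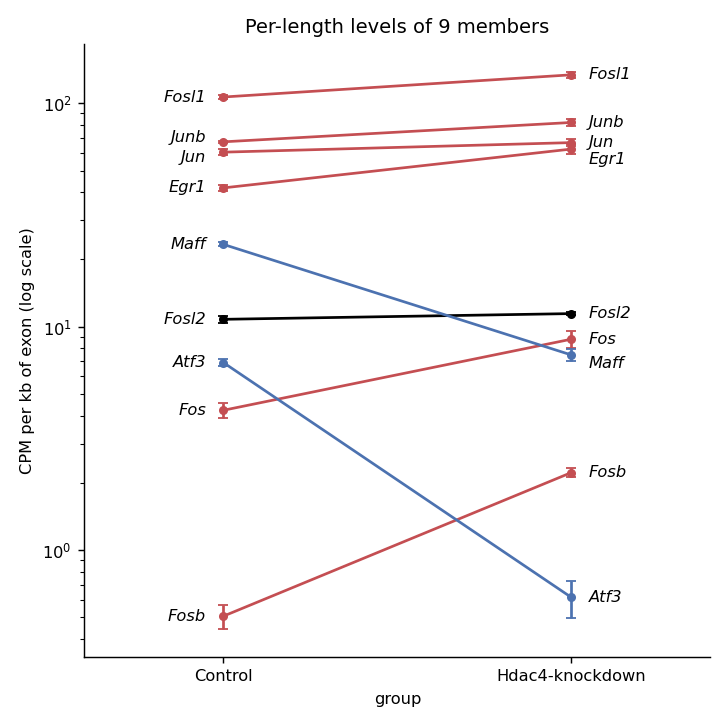
Mean level per kb of exon (CPM per kb, log axis) of 9 members in Control and Hdac4-knockdown libraries, with SD bars (n = 3) and lines joining the groups; red lines rose, blue lines fell and the black line did not pass the test. The line of Atf3 crosses those of Fos and Fosb, that of Maff crosses those of Fosl2 and Fos, and Fosl1 stays on top in both groups.

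Fosl1 made up most of the FOS family in both groups. Summed over the 4 FOS genes, the level per kb was 122 ± 2.66 CPM in Control and 157 ± 3.78 CPM in Hdac4-knockdown libraries (SD, n = 3). Fosl1 supplied 87.3 ± 0.399% of it in Control and 85.6 ± 0.790% in Hdac4-knockdown libraries (SD, n = 3). Fos supplied 3.46 ± 0.189% and 5.62 ± 0.533%, Fosb 0.415 ± 0.0592% and 1.42 ± 0.0660%, and Fosl2 8.84 ± 0.443% and 7.32 ± 0.275% (SD, n = 3). Jun and Junb together were at 128 ± 2.53 and 149 ± 5.34 CPM per kb (SD, n = 3), with Junb at 52.7 ± 0.393% and 55.2 ± 0.404% of that sum. These sums and shares are descriptions and were not tested. The level and share of Fosl1 may be too low, since its length includes the bases shared with Ccdc85b.

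Other basic leucine zipper genes that pair with AP-1 or MAF proteins were split. Of 15 listed, 12 were tested, 5 rose and 5 fell, where 38.0% of all tested genes rose and 37.1% fell. Their median log2 fold change was 0.05 (0.01 for all tested genes). Maf, a large MAF factor, rose from 10.0 ± 1.42 to 70.1 ± 5.57 CPM (SD, n = 3; log2 fold change 2.81, SE 0.0839, edgeR adjusted p = 1.27e-16). Nfe2l1, a partner of small MAF proteins, rose from 300 ± 2.75 to 499.9 ± 3.28 CPM (SD, n = 3; log2 fold change 0.74, edgeR adjusted p = 4.21e-13). Bach1, the repressor that binds with small MAF proteins, fell (log2 fold change -0.41, edgeR adjusted p = 2.40e-06), as did Atf2, a JUN partner (-0.33, edgeR adjusted p = 2.35e-05). Jdp2, a JUN dimer partner that represses AP-1 targets, had a log2 fold change of -0.16 (SE 0.0676, edgeR adjusted p = 0.0373) with overlapping groups.

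The other immediate early genes were found in both directions. Of 28 listed and tested, 14 rose, 11 fell and 3 did not pass, and the median log2 fold change was 0.20, where 38.0% of all tested genes rose, 37.1% fell and the median was 0.01. The largest rises among well-counted genes were in Gadd45b, a stress response gene, from 11.4 ± 0.926 to 67.4 ± 2.64 CPM (SD, n = 3; log2 fold change 2.57, edgeR adjusted p = 1.65e-17), Ptgs2, which encodes cyclooxygenase, from 76.7, 78.2 and 78.9 CPM to 229, 213 and 225 CPM (log2 fold change 1.51, edgeR adjusted p = 8.54e-17), and Zfp36l1, an mRNA decay factor, with a log2 fold change of 1.28 (edgeR adjusted p = 3.08e-10; 1672 of its 2990 exon bases are shared with Gm26669). Of the 28, Rhob, a small GTPase, fell most, from 614 ± 11.8 to 118 ± 2.41 CPM (SD, n = 3; log2 fold change -2.38, edgeR adjusted p = 1.57e-20). Dusp1, a phosphatase of JNK and p38 kinases, fell from 112 ± 2.41 to 30.6 ± 1.75 CPM (SD, n = 3; log2 fold change -1.88, edgeR adjusted p = 4.48e-17), and Csrnp1 fell by 1.75 on the log2 scale (edgeR adjusted p = 4.25e-13). Klf2 and Klf4, related Krüppel-like factors named after their values were seen, went opposite ways, with log2 fold changes of -1.47 (edgeR adjusted p = 2.82e-14) and 0.75 (edgeR adjusted p = 7.37e-12).

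Most inhibitors that act back on MAP kinase signalling fell. Of 15 genes of the Dusp, Spry and Spred families, all tested, 11 fell and 4 rose, and the median log2 fold change was -0.77. Over all tested genes 37.1% fell and 38.0% rose, and the median was 0.01. Those that fell include Dusp1, which is also counted among the immediate early genes above. Dusp4, a nuclear phosphatase of ERK and JNK, was at 297, 292 and 297 CPM in Control and 83.4, 81.1 and 84.2 CPM in Hdac4-knockdown libraries (log2 fold change -1.83, SE 0.041, edgeR adjusted p = 1.25e-18). Dusp8, a phosphatase of JNK and p38, fell from 17.99 ± 1.25 to 2.30 ± 0.269 CPM (SD, n = 3; log2 fold change -2.97, edgeR adjusted p = 9.85e-15). Dusp6, the cytoplasmic ERK phosphatase, fell by only 0.19 on the log2 scale (edgeR adjusted p = 0.000558). The members that rose were Spred3 (log2 fold change 0.80, edgeR adjusted p = 6.89e-08), Dusp7 (0.51, edgeR adjusted p = 1.97e-06), Dusp5 (0.34, edgeR adjusted p = 1.57e-06) and Spred1 (0.14, edgeR adjusted p = 0.0338), of which Spred1 was named after its values were seen and its groups overlapped.

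The kinases and the transcription factors that act upstream of immediate early genes were mixed. Of 22 MAP kinase cascade genes, 21 were tested, 8 rose and 10 fell, and the median log2 fold change was -0.17. Over all tested genes 38.0% rose and 37.1% fell, and the median was 0.01. Map2k1, which encodes the ERK kinase MEK1, fell from 141 ± 3.46 to 92.3 ± 3.02 CPM (SD, n = 3; log2 fold change -0.61, edgeR adjusted p = 1.89e-10), as did Rps6ka2, an ERK-activated kinase (-0.89, edgeR adjusted p = 2.06e-12), and Map2k6, a p38 kinase kinase (-0.61, edgeR adjusted p = 0.000474). Mapk14, which encodes p38α, rose (0.44, edgeR adjusted p = 3.47e-08), as did Mapk9, which encodes a JNK (0.31, edgeR adjusted p = 8.76e-06). Rps6ka1, which encodes RSK1, rose from 29, 34 and 28 counts to 193, 212 and 157 counts (log2 fold change 2.55, edgeR adjusted p = 1.49e-10). Among 11 SRF, TCF and CREB factors and coactivators, 4 rose and 6 fell, with a median of -0.16, beside the same shares of all tested genes. Srf, which binds the CArG box, had a log2 fold change of -0.18 (SE 0.0508, edgeR adjusted p = 0.00396), which was -0.09 and did not pass with upper quartile scaling (edgeR adjusted p = 0.1251; 0.000156 to 0.1251 over all alternatives). Its partner Elk1 fell by 0.58 (edgeR adjusted p = 5.10e-08) whereas Elk4 rose (0.32, edgeR adjusted p = 0.000446). Creb1, which binds the CRE, fell by 0.27 (edgeR adjusted p = 0.000148) and Mrtfa, an SRF coactivator, by 0.24 (edgeR adjusted p = 0.000286). The CREB coactivators Crtc1 and Crtc3 rose by 0.80 (edgeR adjusted p = 3.32e-10) and 0.77 (edgeR adjusted p = 1.76e-10).

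Cofactors of EGR1 and AP-1 differed by small amounts. Of 6 genes listed as corepressors, 4 fell, among them Jdp2, which also stands among the dimer partners. The 1 that rose was Cops5, known as a JUN coactivator and not as a corepressor. The median log2 fold change was -0.13, and over all tested genes 38.0% rose and 37.1% fell. Nab1, which binds EGR1, was at 69.1 ± 3.83 and 66.0 ± 1.67 CPM (SD, n = 3; log2 fold change -0.07, 95% confidence interval -0.17 to 0.04, edgeR adjusted p = 0.245), and it turned to 0.023 with upper quartile scaling. Nab2, itself an EGR1 target, was at 61.7 ± 1.34 and 56.3 ± 3.66 CPM (SD, n = 3; log2 fold change -0.13, edgeR adjusted p = 0.034) with overlapping groups. Ncor1 fell by 0.24 (edgeR adjusted p = 3.9e-05), and Cops5 rose by 0.10 (edgeR adjusted p = 0.0412). The calls of Nab2, Cops5 and Jdp2 were lost under 8, 6 and 6 of 14 alternatives.

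Genes with published AP-1 or EGR1 sites were also found in both directions. Of 20 listed, 18 were tested, 8 rose, 7 fell and 3 did not pass, and their median log2 fold change was 0.05, where 38.0% of all tested genes rose and 37.1% fell. Mmp13, the collagenase of bone and an AP-1 target in osteoblasts, was at 4.35, 3.94 and 4.88 CPM in Control and 40.6, 33.1 and 39.1 CPM in Hdac4-knockdown libraries (log2 fold change 3.10, SE 0.1, edgeR adjusted p = 4.46e-16). Hmox1, the heme oxygenase gene controlled through MAF-binding elements, rose from 126 ± 1.19 to 408 ± 19.8 CPM (SD, n = 3; log2 fold change 1.70, edgeR adjusted p = 1.08e-17), and Pdgfa rose by 0.65 (edgeR adjusted p = 1.02e-08). Plau, which encodes urokinase, fell from 76.0 ± 3.10 to 16.8 ± 1.16 CPM (SD, n = 3; log2 fold change -2.18, edgeR adjusted p = 6.10e-17). Its receptor gene Plaur fell by 1.10 (edgeR adjusted p = 1.41e-13), and Spp1, which encodes osteopontin, by 0.62 (edgeR adjusted p = 1.82e-12).

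**Figure D4:**
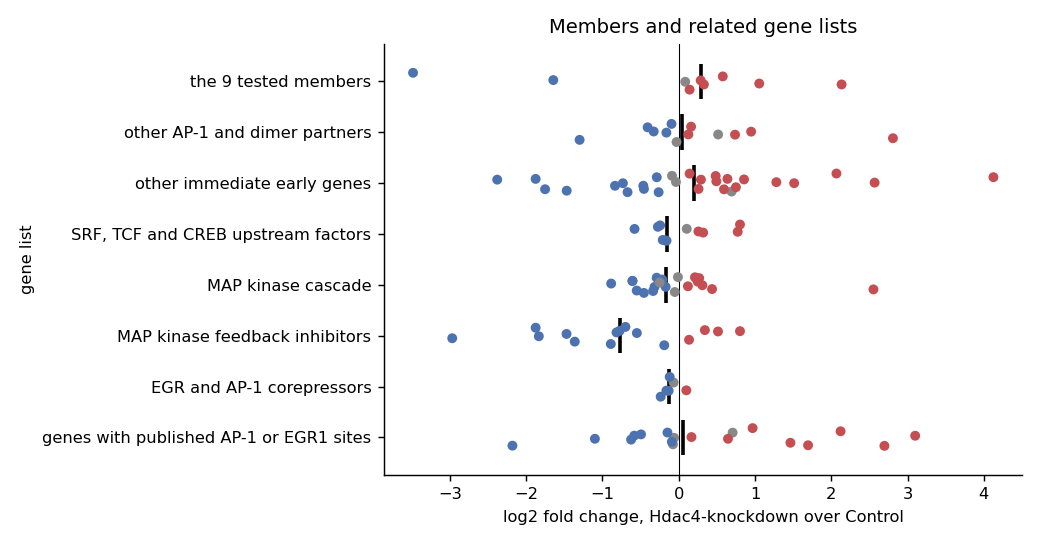
Log2 fold changes (horizontal axis) of the 9 tested members and of the tested genes in 7 related lists; each point is a gene, red where it rose, blue where it fell and grey where it did not pass the test, and the black line is the list's median. The medians lie between -0.17 and 0.29 except for the MAP kinase feedback inhibitors, at -0.77.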

How the data were processed

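RNA of 6 MC3T3-E1 libraries was poly-A selected and sequenced with a kit that does not mark strand. The authors deposited raw counts per Ensembl gene. The submitters' processing notes name FastQC, STAR 2.7.3a, HTSeq 0.12.4 and mm10, and the annotation and strand setting are not given in the sources used here. Closing lines for unassigned reads were left out; reads shared between genes were 5.84% to 6.51% of a library. GENCODE M21 (GRCm38) gave symbols, positions and exon lengths for 53706 of 53801 identifiers, and RefSeq (GRCm38.p6) the promoters. Exon bases shared with other genes are given above for the members and Zfp36l1 only. Other named genes share some too, among them Nab2 (1241 of 2941), Pdgfa (813 of 3119), Dusp5 (547 of 2473), Csf1r (873 of 5774) and Hdac4 (3536 of 15813).

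The groups were compared by edgeR 4.0.16 under R 4.3.3 (TMM, filterByExpr, quasi-likelihood test, Benjamini-Hochberg adjustment over all 14531 genes tested). The test was tried beforehand on counts simulated from the Control means with a limited set of planted changes. That setting does not cover data such as these, where 75.1% of tested genes passed the thresholds. Libraries of one group differed by more than sampling noise (chi-square per degree of freedom 3.38 to 9.15). The largest values, 9.15 and 6.45, belonged to the pairs that hold Hdac4-knockdown replicate 2. Named genes are the members, Hdac4, the 3 most changed called genes per list and direction with at least 100 counts on average, and Srf, Nab1, Nab2, Jdp2, Dusp1 and Dusp6. Exceptions are stated. Marker lists are given as sums. The members and lists were chosen with earlier results of these data known. Alternatives were DESeq2 1.42.0, limma-voom (limma 3.58.1), other scalings, filters and thresholds, a replicate block and leaving out each library. Groups of 3 were too small for a test of outlying libraries.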

Additional observations from a re-analysis of the deposited data

How the results depend on the processing

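All 9 tested members kept their direction under all 14 alternatives, and 122 of 126 values kept their side of the threshold. The exceptions were Fosl2, which passed at 0.14 with library size alone, 0.17 with upper quartile scaling and 0.12 with at least 10 counts in every library, and Jun, which no longer passed without Control replicate 3 (0.12; 0.11 to 0.17 when each library was left out). The number of members that rose was 5 to 7 across scalings, filters, tests and omissions and the number that fell was 2, but at a log2 fold change threshold of 0.5 or 1 the first was 3 or 2. The 7 related lists held 12, 28, 11, 21, 15, 6 and 18 tested genes, with Dusp1 and Jdp2 each in 2 of them. Counting each gene once, 44 genes rose and 52 fell, where 38.0% of all tested genes rose and 37.1% fell. Thresholds of 0.5 and 1 left 24 and 12 higher and 26 and 11 lower. Of all tested genes, these thresholds left 24.6% and 16.5% higher and 19.8% and 10.6% lower. Nab1 turned from -0.067 to 0.023 with upper quartile scaling. Of 574 values of the 41 named genes of the lists, 21 lost the call (8 of Nab2, 6 each of Cops5 and Jdp2, and 1 of Srf). Upper quartile scaling moved the median log2 fold change of all genes from 0.01 to 0.10. The replicate numbers did not pair the libraries (correlations of deviations -0.00523, 0.0956 and 0.0206, and only the libraries numbered 2 correlated best with their own number), and with the replicate block 6 members rose and 2 fell, with 10964 genes called in all against 10914. Depth limits Atf3 most, with 36 to 52 counts in Hdac4-knockdown libraries.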

Other observations

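Within each group, the members deviated little from their group means. In Control libraries the deviations ran from -0.20 to 0.16 on the log2 scale and in Hdac4-knockdown libraries from -0.17 to 0.30, the widest in each direction belonging to the scarce Fosb and Atf3. Control replicate 2 held the highest value of its group for 6 of 9 members, and Hdac4-knockdown replicate 2 for 5 of 9. Fos, Fosb and Fosl2 were lowest of their group in Hdac4-knockdown replicate 2.

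The remaining EGR genes, looked at after their values were seen, had lower counts than Egr1. Egr2 was counted 28, 22 and 25 times in Control and 135, 90 and 105 times in Hdac4-knockdown libraries (log2 fold change 2.07, SE 0.234, edgeR adjusted p = 1.48e-07). Egr3 had a log2 fold change of -0.29 (SE 0.0812, edgeR adjusted p = 0.00355), and Egr4 went from 4, 0 and 1 counts to 36, 43 and 19. Of the Nr4a genes, nuclear receptors that are also induced early and were likewise looked at after their values were seen, Nr4a1 fell (log2 fold change -0.67, edgeR adjusted p = 4.46e-05), as did Nr4a2 (-0.46, edgeR adjusted p = 0.000245). Nr4a3 was counted 17, 10 and 13 times in Control and 24, 23 and 21 times in Hdac4-knockdown libraries, without overlap, and did not pass the test (log2 fold change 0.69, edgeR adjusted p = 0.0823).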
